A study of Mus musculus with 8 samples.

Results

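The genes that let blood progenitors sense and hold on to the bone marrow were examined for open chromatin. They were the chemokine receptor genes Cxcr4, Cxcr2, Ccr1, Ccr2 and Cx3cr1, the integrin genes Itga4, Itgb1 and Itgam, and the hyaluronan receptor gene Cd44. ATAC-seq, in which the Tn5 transposase cuts accessible DNA, had been run on bone marrow cells of female mice aged 4.5 months, strain 129Sv4/Jae x B6, with about 10000 cells in each reaction. LSK+ cells (Lin-SCA-1+c-KIT+, the fraction that holds the stem cells) and LSK- cells (Lin-SCA-1-c-KIT+, committed progenitors) came from wild-type (WT) mice and from XistΔ/Δ mice, in which both Xist alleles were deleted in blood cells by a Cre driven by the Vav1 promoter. Each of the 4 groups had 2 libraries, 8 in all, described in the study as biological replicates, with replicate 1 and replicate 2 sequenced on different instruments. All peaks overlapping a gene body or the 20 kb on either side of it were taken, and peaks of the 8 lists that overlapped were joined into regions. This gave 121 regions for the 9 genes, of 123260 regions on chromosomes 1 to 19 and X, from 525 of the 501728 peaks.

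CXCR4 is the receptor for CXCL12, the chemokine with which stromal cells keep stem and progenitor cells in the marrow, whereas CXCR2 draws neutrophils out of it. CCR1, CCR2 and CX3CR1 guide myeloid cells, above all monocytes and macrophages, to inflamed or damaged tissue. Integrin α4, encoded by Itga4, pairs with integrin β1, encoded by Itgb1, to form VLA-4, which binds VCAM-1 on marrow stroma, and CD44 binds hyaluronan in the matrix around the niche. Integrin αM, encoded by Itgam, is CD11b, a surface marker of mature myeloid cells.

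The lists held between 29829 peaks, in LSK+ WT replicate 2, and 91590 peaks, in LSK- XistΔ/Δ replicate 1. In each of the 4 pairs matched for cell type and replicate, the XistΔ/Δ list was longer than the WT list. A peak's strength was therefore given as its percentile within its own list, by −log10 p, so that 100 is the strongest peak and a library without a peak is set to 0. Genotype values were also computed from the 29829 strongest peaks of every list. Read depth was not analysed here. As a check of the sort, the promoters of the late erythroid genes Hbb-bt, Slc4a1 and Alas2 ranked higher in LSK- than in LSK+ libraries without overlap in either genotype. This held for 3 of 3 genes, next to 8.50% of 16238 protein-coding genes. Their mean percentile ran from 0 to 10.7 in LSK+ and from 47.9 to 87.3 in LSK- libraries. The other marker lists were less clear. Of 9 promoters of LSK- progenitor genes, 2 ranked higher in LSK- in this way, Gata1 and Epor. Csf1r, from the same list, ranked higher in LSK+, with a mean of 91.0 in LSK+ and 79.7 in LSK-. Of 9 promoters of stem and early progenitor genes, 0 ranked higher in LSK+ (3.73% of all genes), and Mllt3 and Slamf1 ranked higher in LSK-. Ly6a, which encodes part of the SCA-1 antigen used in the sort, had a promoter peak in only 1 LSK+ library, at percentile 10.8, and in 1 LSK- library, at 29.6. The promoters of Ly6g, C1qa, Cd79a, Cd3e, Cd4 and Cd8a, which mark mature myeloid, B and T cells, had no peak in any library. S100a8 and Lck, from the mature myeloid and T cell lists, had a promoter peak in all 8. The part of cell composition in the differences below was not tested.

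Of the 121 regions, 17 had their summit within 3 kb of a transcription start site (TSS) of the member gene (promoter regions), 14 lay at the promoter of another gene, and 90 were distal. Of the distal regions, 43 were intronic, 5 overlapped an exon and 42 lay outside the gene body. A peak was present in all 8 libraries at 18 of the 121 regions (14.9%), next to 17.3% of all regions, and in only 1 library at another 18 regions. The number of regions with a peak was 52 and 22 for LSK+ WT, 76 and 66 for LSK+ XistΔ/Δ, 79 and 43 for LSK- WT, and finally 101 and 72 for LSK- XistΔ/Δ. Each pair gives replicate 1 first, an order kept throughout. Per 10000 peaks of the list there were 7.38 to 10.4 such regions in LSK+ libraries, and each LSK- library had more, up to 11.5. When every list was cut to 29829 peaks, the LSK+ libraries held 26, 22, 28 and 32 of the regions, and the LSK- libraries held 31, 36, 32 and 37, which overlap slightly. Cx3cr1 had the most regions (31), because a long GENCODE transcript stretches its gene body to 168 kb across several other genes. With the RefSeq gene body of 19.6 kb, 8 of these regions remain and the total falls to 98.

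**Figure D1:**
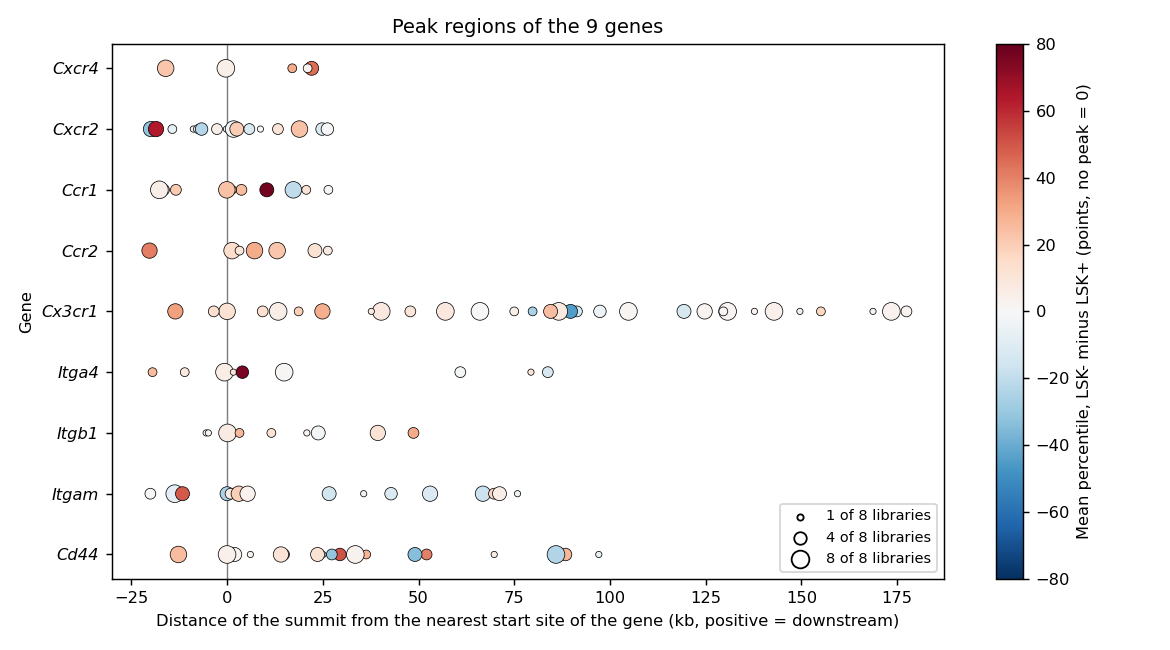
Peak regions of the 9 genes by distance of the summit from the nearest TSS of the gene (kb, x axis); each row is a gene, circle area grows with the number of libraries that have a peak, and color gives the LSK- minus LSK+ difference of mean percentile (red higher in LSK-, no peak counted as 0). The darkest red circles are the regions at +10.4 kb of Ccr1 (77.3 points) and +4.0 kb of Itga4 (75.8 points).

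At promoters, Cxcr4, Itga4, Itgb1 and Cd44 had peaks in every library. Cxcr2, Ccr1, Ccr2, Cx3cr1 and Itgam had peaks of lower mean percentile that were missing from 1 or 2 WT libraries. Over all protein-coding genes with a promoter peak, the median percentile was 77.3 to 89.5 by library. Cxcr4, Itga4, Itgb1 and Cd44 were each above it in some libraries and below it in others. In lists of equal length the Itgb1 promoter ran from 27.9 to 81.6. For Cxcr4 (chr1:128588199-128592293, minus strand) the promoter percentile was, for LSK+, 86.0 and 69.2 with WT and 84.7 and 81.7 with the XistΔ/Δ genotype, and for LSK-, 87.9 and 76.7 with WT and 88.9 and 85.9 with XistΔ/Δ. Its lowest value came from LSK+ WT replicate 2 and the groups overlapped. The promoters of Itga4, Itgb1 and Cd44 also had a peak in all 8 libraries, with percentiles of 67.2 to 93.1, 68.3 to 88.9 and 69.4 to 88.8, all in the upper part of the lists.

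Cxcr2 (chr1:74153989-74161246) had promoter percentiles of 18.6 and 2.26 for LSK+ WT, 42.4 and 36.9 for LSK+ XistΔ/Δ, 40.0 and no peak for LSK- WT, and 44.0 and 47.0 for LSK- XistΔ/Δ libraries. These peaks lay 1.7 and 2.5 kb into the gene, and a peak at -0.2 kb was called in LSK+ XistΔ/Δ replicate 1 alone, at percentile 1.68. For Ccr1 (chr9:123962124-123968692, minus strand) the values were 30.3 and no peak for LSK+ WT, 37.0 and 58.1 for LSK+ XistΔ/Δ, 46.7 and 40.9 for LSK- WT, and 71.5 and 71.3 for LSK- XistΔ/Δ libraries. Ccr1 was the only one of the 9 genes whose promoter ranked higher in LSK- than in LSK+ without overlap in both genotypes (1 of 9 genes, with 8.50% of 16238 protein-coding genes doing so), and 0 of 9 ranked higher in LSK+ (3.73% of genes). The mean difference for Ccr1 was 26.2 points (LSK+ 31.4, LSK- 57.6; two-sided exact permutation test, p = 0.0556, the smallest value that 4 against 4 libraries permuted within genotype can give). With lists of equal length, 3 of the 4 LSK+ libraries and 1 of the 4 LSK- libraries had no Ccr1 promoter peak, and LSK+ and LSK- overlapped at 0.

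Ccr2 (chr9:124101950-124113557) and Cx3cr1 had promoter peaks in 7 libraries, missing in LSK+ WT replicate 2. Their percentiles otherwise ran from 16.1 to 72.0 and from 43.0 to 80.7, and LSK+ and LSK- libraries overlapped. The Cx3cr1 summit lay at a TSS of the gene. The Ccr2 summit lay 1.3 kb downstream of one, in an exon, and no library had a peak within 1 kb of a Ccr2 TSS. Itgam (chr7:128062640-128118491) departed from the rest. Its promoter percentile was 69.0 and no peak for LSK+ WT, 70.8 and 70.2 for LSK+ XistΔ/Δ, 0.0309 and no peak for LSK- WT, and 54.5 and 54.7 for LSK- XistΔ/Δ libraries. Among the 9 genes it was the only one with a lower mean in LSK- (27.3) than in LSK+ (52.5), but the difference of -25.2 points did not pass the exact permutation test (p = 0.167), and it was -7.94 points without LSK+ WT replicate 1 and -42.4 points without LSK+ WT replicate 2. Cells with CD11b on their surface had been removed by the sort from both fractions.

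**Figure D2:**
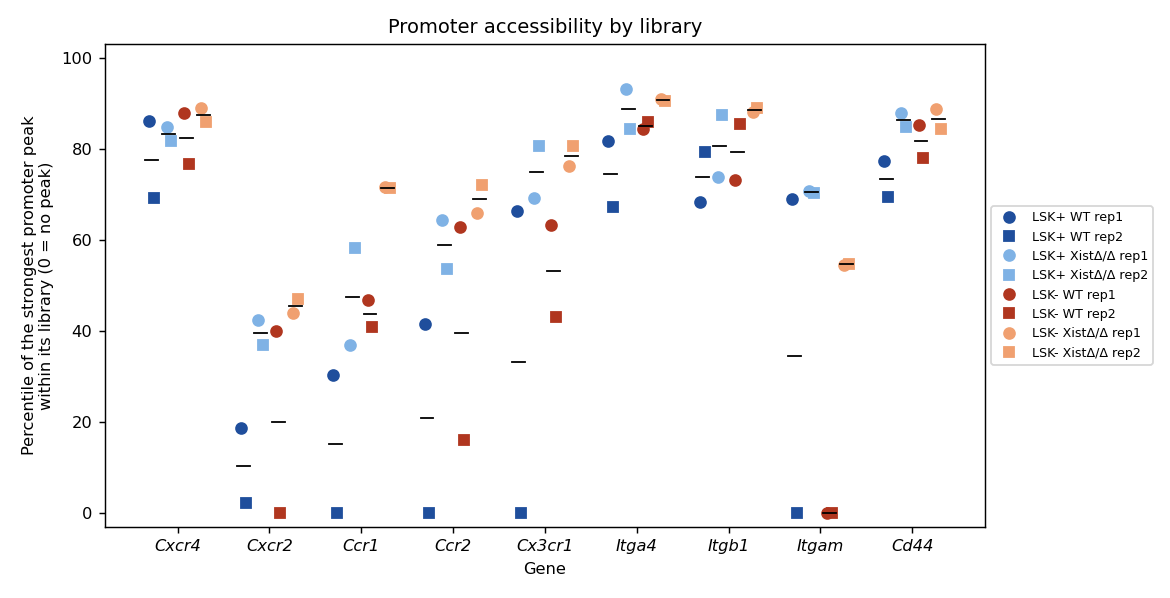
Percentile of the strongest promoter peak of each gene (y axis, 0 where no peak was called) in the 8 libraries; color gives the group, circles are replicate 1, squares replicate 2 and bars the mean of the 2 libraries. Cxcr4, Itga4, Itgb1 and Cd44 lie between 67.2 and 93.1 in every library, while the other 5 genes reach 0 in at least 1 WT library.

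The clearest cell type differences were distal. Peaks in all 4 LSK- and no LSK+ library were found at 3 of the 63 member regions with peaks in at least 4 libraries, compared with 4.32% of all such regions, so their number was close to the background. They lay at Itga4 +4.0 kb, Cd44 +29.5 kb and Cd44 +88.4 kb, where the distance is that of the summit downstream of the TSS. The reverse pattern, all 4 LSK+ and no LSK-, was seen at 0 member regions (1.19% of all).

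The intronic Itga4 +4.0 kb region (chr2:79259222-79259844) had percentiles of 83.9 and 62.6 for LSK- WT and 93.7 and 63.0 for LSK- XistΔ/Δ libraries, and no peak in LSK+. It was missing from the LSK+ XistΔ/Δ replicate 1 list of 82488 peaks but present in the LSK- WT replicate 2 list of 37578. The fold enrichment over background given in the lists was 5.27 to 7.11 in the LSK- libraries. Cut to equal length, the lists still gave the region peaks in all 4 LSK- libraries, at 61.7, 52.9, 80.6 and 22.5, and in none of LSK+. A second intronic region, at Itga4 +14.9 kb (chr2:79270042-79270733), was the strongest distal region of the 9 genes and was open in all libraries, at 97.1, 76.3, 98.4 and 86.2 in LSK+ and 97.4, 79.3, 97.4 and 87.5 in LSK-. The gene of the VLA-4 α chain thus carried a region shared by both fractions and another seen in LSK- alone.

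Cd44 (chr2:102811141-102901665, minus strand) showed differences in both directions. The intronic region at +29.5 kb (chr2:102871733-102872150) had percentiles of 58.0 and 32.9 for LSK- WT and 58.8 and 54.8 for LSK- XistΔ/Δ libraries, and no peak in LSK+. The region at +88.4 kb, which overlapped an exon, was weaker, at 34.6, 17.7, 23.4 and 30.7 in LSK-. With lists of equal length the +88.4 kb region was lost from every library and the +29.5 kb region kept only the replicate 2 LSK- libraries, at 15.5 and 5.31. The intronic region at +85.9 kb (chr2:102815135-102815846) went the other way, with percentiles of 96.7 and 66.7 for LSK+ WT, 97.0 and 81.6 for LSK+ XistΔ/Δ, 84.1 and 24.1 for LSK- WT, and 78.8 and 59.4 for LSK- XistΔ/Δ libraries. Within each replicate number both LSK+ libraries were above both LSK- libraries. Its fold enrichment was 16.6, 11.8, 17.4 and 17.2 in LSK+ and 11.7, 6.27, 12.4 and 10.8 in LSK-.

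The Cd44 +85.9 kb region was the one member region that passed the test between cell types. The test was run with limma on the percentile among the 21360 regions that had a peak in all 8 libraries, with the replicate number as a block and Benjamini-Hochberg adjustment over all of them. Of the 18 member regions tested, 0 were higher in LSK- (9.12% of all regions) and 1 was higher in LSK+ (11.6%). On this scale the region had a mean of 69.9 in LSK+ and 29.5 in LSK-, a difference of -40.4 ± 7.61 points (SE, limma, adjusted p = 0.00137), with -44.2 points among replicate 1 and -36.5 among replicate 2 libraries. Leaving out any 1 library kept the call (adjusted p up to 0.0238), whereas the fit without the replicate block lost it (adjusted p = 0.194). Among the 18 regions, 13 had a higher mean in LSK- and 5 in LSK+, with a median difference of 6.19 points next to 0.928 over all regions tested. Most of the 13 lay in the part of the long Cx3cr1 model outside the RefSeq window, with which 10 of the 18 regions remained. The split therefore does not describe the member genes alone, and its share over all regions is not given.

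The sequences of the regions with the clearest patterns are shown, 300 bases around the summit on the plus strand of mm10, in lower case with matches to 6 short motifs in capitals. The motifs were sought on both strands. The GATA motif was written as AGATAA or, in its other form, TGATAA. The RUNX motif was TGTGGT and the ETS motif was GAGGAAG. The motif of C/EBP factors was TTGCNNAA and that of AP-1 was TGANTCA, while the E-box was CAGCTG or else CAGATG. The first is the Cd44 region higher in LSK+, the next 2 are regions seen in LSK- alone, the fourth is the Itga4 region open in all libraries, and the last is the only region with a peak in each of the 4 XistΔ/Δ lists but in none from WT.
Cd44 +85.9 kb, chr2:102815305-102815604: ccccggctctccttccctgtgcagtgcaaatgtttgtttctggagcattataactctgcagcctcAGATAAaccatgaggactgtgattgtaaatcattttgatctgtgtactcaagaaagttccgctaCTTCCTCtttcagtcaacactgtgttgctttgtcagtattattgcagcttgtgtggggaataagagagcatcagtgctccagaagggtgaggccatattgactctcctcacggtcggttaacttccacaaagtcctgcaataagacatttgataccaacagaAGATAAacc
Itga4 +4.0 kb, chr2:79259343-79259642: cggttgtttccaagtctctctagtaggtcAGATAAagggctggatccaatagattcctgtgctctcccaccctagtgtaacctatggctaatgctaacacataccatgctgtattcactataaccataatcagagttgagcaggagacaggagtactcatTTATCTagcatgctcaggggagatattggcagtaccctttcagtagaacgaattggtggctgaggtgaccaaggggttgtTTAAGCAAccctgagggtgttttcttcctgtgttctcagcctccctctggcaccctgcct
Cd44 +29.5 kb, chr2:102871732-102872031: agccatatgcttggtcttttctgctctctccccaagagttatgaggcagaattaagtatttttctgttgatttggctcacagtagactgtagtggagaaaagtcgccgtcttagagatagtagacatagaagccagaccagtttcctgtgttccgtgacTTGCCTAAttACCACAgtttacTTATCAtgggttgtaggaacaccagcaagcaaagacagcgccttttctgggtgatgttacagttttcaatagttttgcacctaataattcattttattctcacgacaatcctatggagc
Itga4 +14.9 kb, chr2:79270248-79270547: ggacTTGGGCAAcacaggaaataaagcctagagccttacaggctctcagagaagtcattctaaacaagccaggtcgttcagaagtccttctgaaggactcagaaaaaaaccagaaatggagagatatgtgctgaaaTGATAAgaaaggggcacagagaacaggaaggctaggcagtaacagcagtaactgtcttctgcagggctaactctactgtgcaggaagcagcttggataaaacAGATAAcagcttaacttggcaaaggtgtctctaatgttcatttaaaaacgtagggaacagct
Cxcr2 +24.8 kb, chr1:74178643-74178942: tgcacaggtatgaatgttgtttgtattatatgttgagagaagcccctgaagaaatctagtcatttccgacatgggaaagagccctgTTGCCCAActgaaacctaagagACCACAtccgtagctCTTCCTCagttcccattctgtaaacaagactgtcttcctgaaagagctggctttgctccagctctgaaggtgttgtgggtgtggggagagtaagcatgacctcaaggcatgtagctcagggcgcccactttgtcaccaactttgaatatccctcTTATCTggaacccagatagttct

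The 5 windows all held GATA letters, the motif of the GATA factors of stem and erythroid cells: 2 matches each in Cd44 +85.9 kb, Itga4 +4.0 kb and Itga4 +14.9 kb and 1 each in the others, so the motif was not particular to the LSK- regions. The 4 windows other than Cd44 +85.9 kb held 1 C/EBP match each. Cd44 +85.9 kb and Cxcr2 +24.8 kb held 1 ETS match each, and Cd44 +29.5 kb and Cxcr2 +24.8 kb held 1 RUNX match each. Over the 90 distal member regions, 46 held a GATA match (51.1%), next to 36.4% of all 90636 distal regions, and 41 a RUNX match (45.6%, next to 33.8%). ETS letters were present in 27 of the 90 distal member regions (22.0% of all distal regions), C/EBP in 22.2% (14.9%), AP-1 in 10.0% (12.3%) and the E-box in 41.1% (40.5%). Over the whole genome, GATA letters were found in 81.6% of the 2611 regions seen in all LSK- and no LSK+ libraries and in 15.9% of the 722 with the reverse pattern. These are counts of letters within the windows, and binding was not measured.

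The chemokine receptor genes carried LSK- regions that missed the strict class by weak LSK+ peaks. At Ccr1 +10.4 kb (chr9:123957861-123958584), beyond the end of the gene, the percentile was 93.9 and 57.1 for LSK- WT and 96.0 and 67.0 for LSK- XistΔ/Δ libraries, and the only LSK+ peak was at 4.85, in XistΔ/Δ replicate 1. Fold enrichment was 10.3 to 17.3 in LSK- and 4.26 in that LSK+ library. At Cxcr2 -18.6 kb (chr1:74135040-74135829), inside Rufy4, the LSK- percentiles were 75.7, 46.9, 79.3 and 69.5, and the LSK+ XistΔ/Δ libraries had peaks at 5.73 and 10.6. In lists of equal length both regions had peaks in all 4 LSK- and no LSK+ library, as Itga4 +4.0 kb did. These were 3 of the 58 member regions with a peak in any list of equal length. Over the whole series 1644 regions were in this class, so the pattern was not particular to the members. At Cxcr4 +22.1 kb (chr1:128569992-128570597) the values in whole lists were 24.9, 32.7, 58.8 and 63.5 in LSK-, with 1 LSK+ peak at 1.11. In lists of equal length this region kept only the replicate 2 LSK- libraries, at 15.2 for WT and 23.4 for XistΔ/Δ.

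Ccr2 had 2 more regions with a higher mean in LSK-, and in both the cell types overlapped. The region at -20.3 kb (chr9:124081353-124082025) had percentiles of 70.5 and 11 for LSK- WT and 82.3 and 40.0 for LSK- XistΔ/Δ libraries. Its LSK+ percentiles were 4.85 and 34.6 with XistΔ/Δ, the latter above the LSK- WT replicate 2 value, and LSK+ WT had no peak. The region at +7.2 kb, which overlapped an exon of Ccr2, was at 62.0, no peak, 82.8 and 65.1 in LSK+ and at 90.0, 66.9, 90.4 and 81.8 in LSK- libraries. Other distal regions were open in both fractions. The strongest distal regions of Ccr1 and Cx3cr1 had peaks in all 8 libraries, at -17.7 kb of Ccr1 with 40.2 to 88.7 in LSK+ and 54.0 to 90.5 in LSK-, and at +13.3 kb of Cx3cr1, in an intron, with 28.6 to 91.5 and 67.6 to 84.9. That of Itgam, at -13.7 kb, was also present in all libraries, at 87.7, 44.1, 93.2 and 82.2 in LSK+ and 88.6, 45.6, 85.5 and 57.4 in LSK-. The cell types overlapped at these 3 regions, and the replicate 2 WT libraries were the lowest at Itgam.

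The strongest distal regions of Cxcr4, Cxcr2 and Itgb1 lacked a peak in at least 1 library. At Cxcr4 -16.0 kb the percentiles were 49.1, no peak, 75.5 and 78.2 in LSK+ and 74.6, 62.3, 82.6 and 70.9 in LSK-. At Cxcr2 +18.9 kb they were 28.8, no peak, 44.7 and 43.4 in LSK+ and 61.1, 16.1, 74.2 and 60.0 in LSK-. Both regions lacked a peak in LSK+ WT replicate 2 alone, and LSK+ and LSK- overlapped. The Itgb1 +23.8 kb region, in an intron, was at 34.2, no peak, 72.9 and 55.1 in LSK+ and at 72.3, no peak, 82.0 and no peak in LSK-, so that 3 of the 4 replicate 2 libraries had no peak there.

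**Figure D3:**
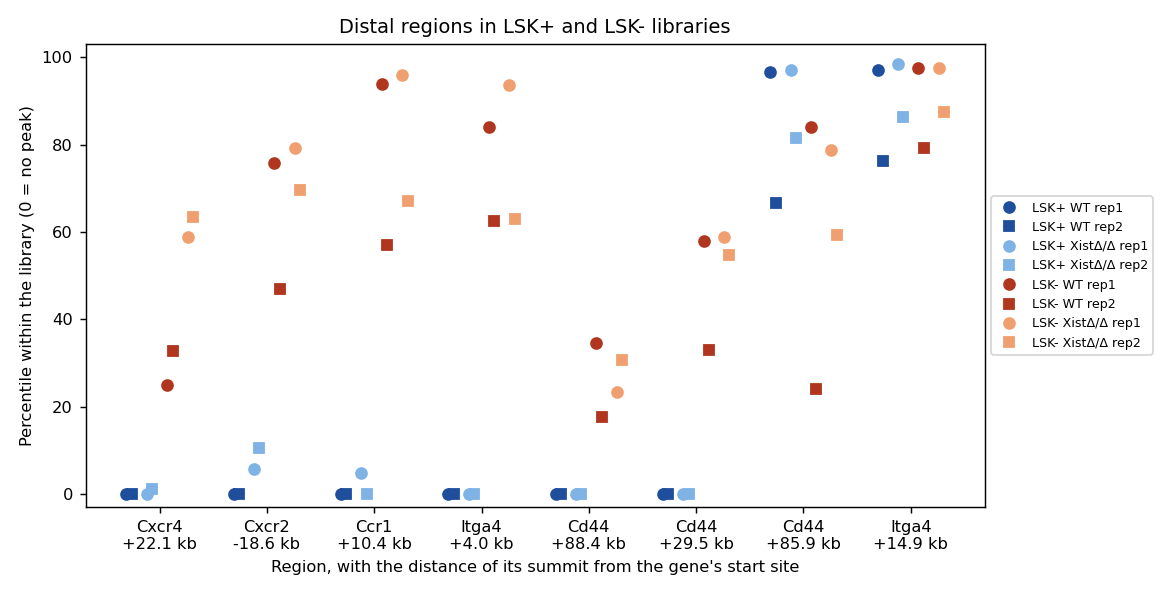
Percentile within the library (y axis, 0 where no peak was called) of 8 distal regions in the 8 libraries, colored by group, with circles for replicate 1 and squares for replicate 2; the x axis gives the gene and the distance of the summit from its TSS. In the first 6 regions the LSK+ libraries lie between 0 and 10.6 and the LSK- libraries between 17.7 and 96.0; Cd44 +85.9 kb is higher in LSK+, and Itga4 +14.9 kb is high in all 8.

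When the test was widened to regions with a peak in at least 4 lists and absent libraries set to 0, 8 of 63 member regions were higher in LSK- (9.97% of all regions) and 3 were higher in LSK+ (7.44%). A region that entered only through the group in which it was present had to differ, so these counts give no support of their own. The 8 were Cxcr4 +22.1 kb, Cxcr2 -18.6 kb, Ccr1 +10.4 kb, Ccr2 +7.2 kb, Itga4 +4.0 kb, Itgam -11.6 kb, Cd44 +29.5 kb and Cd44 +88.4 kb. The 3 were Cd44 +85.9 kb, Cd44 +49.1 kb, and a region inside the long Cx3cr1 model at the promoter of Csrnp1. Itgb1 had no region among them.

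Within one genotype, presence in both libraries of one cell type and neither of the other was counted among regions with a peak in at least 2 of those 4 libraries. In WT, 13 of 58 member regions were seen in LSK- alone (10.1% of all regions) and 1 of 58 in LSK+ alone (3.55%), the latter at Cxcr2 -19.9 kb, next to the LSK- region at -18.6 kb. Its percentiles were 68.5 and 6.31 for LSK+ WT and 61.0 and 42.0 for LSK+ XistΔ/Δ, and 38.7 and 9.3 for LSK- XistΔ/Δ libraries. In XistΔ/Δ cells the counts were 10 of 85 in LSK- alone (9.34%) and 4 of 85 in LSK+ alone (7.54%). By definition, the 3 regions seen in all 4 LSK- and no LSK+ libraries were in the LSK- class of both genotypes.

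Between genotypes, no member region passed the test. Among regions common to all libraries, 0 of 18 member regions and 0 of 21360 regions (0% in either direction) passed an adjusted p of 0.05 in limma for XistΔ/Δ against WT, and 973 regions, 0 of them members, had an unadjusted p under 0.05. The member differences had a median of 1.81 points (-0.0334 over all regions) and standard errors of 3.11 to 8.70 points, and the lowest adjusted p was 0.997. The widest positive difference was 13.2 ± 8.70 points at Cx3cr1 +13.3 kb, with a mean of 40.8 in WT and 54.0 in XistΔ/Δ libraries. The genotype effect did not differ between LSK+ and LSK- at any region by adjusted p (0 of 18 members and 0% of all regions in either direction; 932 regions at an unadjusted p under 0.05). The 1 member region among these 932 was the shared promoter of Gorasp1 and Ttc21a inside the long Cx3cr1 model (adjusted p = 0.928).

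At the promoters, percentiles in whole lists were higher in XistΔ/Δ than in WT without overlap in both cell types for 6 of 9 genes, Cxcr2, Ccr1, Ccr2, Cx3cr1, Itga4 and Itgam, as they were for 17.9% of all genes, and lower for 0 of 9 (0.0246% of all genes). For each of the 6 the exact permutation p was 0.0556, the smallest possible, and 0.125 when libraries were exchanged only within replicate numbers. The count was 3 of 9, Ccr1, Ccr2 and Cxcr2, when whole lists were ranked by fold enrichment (9.61% of all genes), and 4 of 8, Ccr1, Cx3cr1, Itga4 and Itgam, with promoters within 1 kb of the TSS (17.6%). By −log10 p the differences ran from 10.00 points for Itga4 to 45.3 points for Itgam. The lists of XistΔ/Δ libraries were longer, and in lists of equal length this pattern was gone: 0 of 9 genes were higher in XistΔ/Δ (0.775% of all genes) and 1 of 9, Cxcr4, was lower (1.12%). The Cxcr4 values were then 70.2 and 69.2 for LSK+ WT, 57.8 and 61.3 for LSK+ XistΔ/Δ, 71.2 and 70.7 for LSK- WT, and 66.0 and 70.5 for LSK- XistΔ/Δ libraries. Its difference was -6.40 points in lists of equal length (exact permutation p = 0.0556) and 5.39 points in whole lists (p = 0.444), so the direction at Cxcr4 depended on the scale. Between cell types, lists of equal length gave 1 of 9 genes higher in LSK-, again Cxcr4 (6.07% of all genes), and 0 higher in LSK+ (3.98%).

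Itgam had the widest gap between the scales. Its promoter difference of 45.3 points (WT 17.3, XistΔ/Δ 62.5) fell to 6.73 points in lists of equal length, where the values were 34.1 and no peak for LSK+ WT, 19.3 and 36.8 for LSK+ XistΔ/Δ, no peak in either LSK- WT library, and no peak and 4.94 for LSK- XistΔ/Δ. The differences that stayed largest were 22.8 points at Cx3cr1, with WT values of 28.5, no peak, 12.3 and 28.2 and XistΔ/Δ values of 14.6, 58.9, 27.2 and 59.5, which overlap, and 9.47 points at Ccr1.

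**Figure D4:**
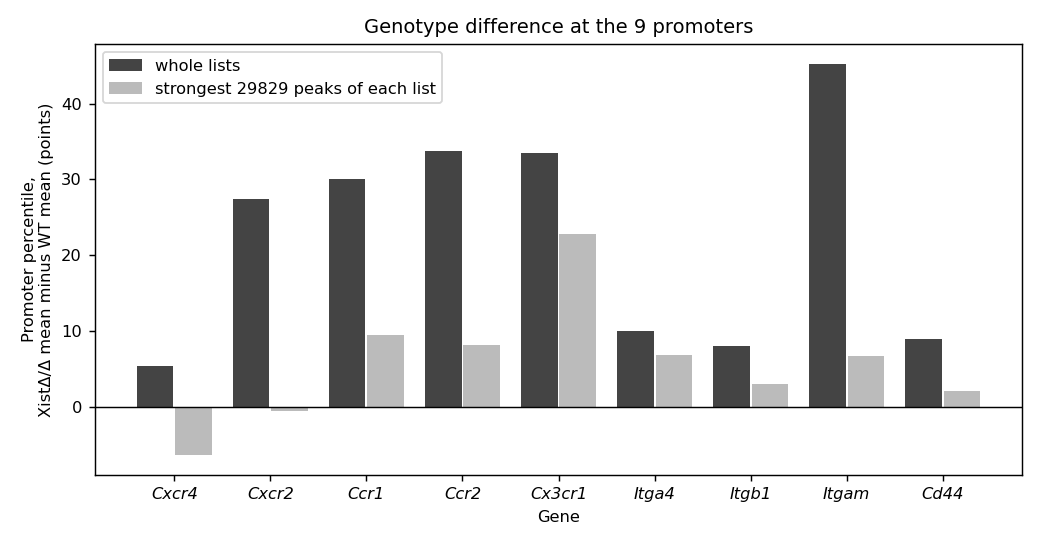
Difference in promoter percentile between the XistΔ/Δ mean and the WT mean of 4 libraries each (y axis, points) for the 9 genes, from whole lists (dark) and from the 29829 strongest peaks of each list (light). All 9 dark bars are above 0, up to 45.3 points at Itgam, and the light bars run from -6.40 points at Cxcr4 to 22.8 points at Cx3cr1.

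Presence of peaks was also counted by genotype. Only the region at Cxcr2 +24.8 kb (chr1:74178674-74179013), outside the gene body, had a peak in each of the 4 XistΔ/Δ lists but in none from WT, at 49.3 and 39.2 in LSK+ and 20.5 and 21.7 in LSK- (1 of 63 member regions, 0.950% of all regions), and the reverse was seen at 0 member regions and 0% of all. The region had no peak in any list of equal length. Within LSK+ cells, 12 of 64 member regions had peaks in both XistΔ/Δ and neither WT library (9.94% of all regions) and 0 of 64 the reverse (0.0570%). Of these 12, 5 belonged to Cxcr2. These counts come from whole lists, in which the XistΔ/Δ lists were longer. In lists of equal length none of the 12 kept a peak in both LSK+ XistΔ/Δ libraries, and the 5 at Cxcr2 had none in either. Within LSK- cells the counts were 9 of 90 (6.77%), none of which kept both peaks in lists of equal length, and 1 of 90 (0.0667%). The last was the intronic Itgam +42.8 kb region, with percentiles of 15.7 and 31.3 for LSK- WT and of 39.5 and 53.0 for LSK+ XistΔ/Δ libraries and no peak in the other 4 libraries.

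A wider list of 44 genes for chemokine receptors, integrins, selectins and other adhesion and niche molecules gave the members a frame. A promoter peak was present in at least 1 library for 43 of them and in all 8 for 29, and the chemokine receptor gene Cxcr6 had none. Without overlap in either genotype, 5 of 44 ranked higher in LSK- (Ccr9, Ccrl2, Itgb7, Icam2 and Kit), beside 8.50% of all genes, and 5 of 44 in LSK+ (Ackr3, Esam, Robo4, Jam3 and F11r), beside 3.73%. Ackr3, which encodes the scavenger receptor for CXCL12, had promoter percentiles of 74.7 to 93.1 in LSK+ and 69.4 to 79.9 in LSK- libraries. Esam, an endothelial and stem cell adhesion gene, was at 71.1 to 81.6 in LSK+ and 20.0 to 59.2 in LSK-. Ccrl2, an atypical chemoattractant receptor gene, was at 1.83 to 49.7 in LSK+ and 73.6 to 93.5 in LSK-. Promoter differences between cell types were thus seen at these niche genes in both directions. Of the 9 member promoters, 1 ranked higher in LSK- and 0 in LSK+, which is near the shares of all genes. Between genotypes, 11 of 44 ranked higher in XistΔ/Δ (17.9% of all genes) and 0 lower, in whole lists of unequal length.

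The genes whose promoter profile over the 8 libraries was closest to that of a member were sought among 12117 protein-coding genes with a promoter peak in all libraries, by the mean absolute difference in percentile. The 3 closest were Strip2, Dhrs3 and 3830406C13Rik for Cxcr4 (1.36 to 1.73 points), Ier3, Flot1 and Amer1 for Itga4 (1.75 to 2.13 points), Plxnd1, Slc48a1 and Wdr82 for Itgb1 (1.51 to 1.84 points), and Exoc2, Gm5447 and Mxd3 for Cd44 (0.960 to 1.28 points). The other 5 members lacked a promoter peak in at least 1 library and were not matched.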

How the data were processed

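The authors trimmed the reads with Trim Galore, aligned them to mm10 with Bowtie2 2.3.5.1, removed reads with mapping quality under 30 and mitochondrial reads with SAMtools 1.10, and called peaks in each library with MACS2 2.2.7.1 at a q-value of 0.01 on paired-end fragments. No control library is stated. The deposited lists give, per peak, fold enrichment (a ratio to local background), −log10 p, −log10 q, a score and the summit position. The values are the authors' own and were used only within a list. The 9 genes and all gene lists were chosen with earlier results of these data known.

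Peaks of the 8 lists on chromosomes 1 to 19 and X that overlapped by at least 1 bp were merged. GENCODE M21 gave genes and TSS, and sequences came from GRCm38.p6, the assembly of mm10. Where a library had several peaks in a region, the highest percentile was used. limma 3.58.1 (R 4.3.3) with an intensity trend was fitted to percentiles re-ranked among the 21360 common regions, with 4 group means and the replicate block, and was tested on simulated data. The replicate number marks a sequencing instrument shared by 4 libraries, and deviations of libraries with the same number correlated at 0.393 to 0.705 between groups, so it was kept as a block. Single promoters were compared by a two-sided exact permutation test over libraries (36 assignments, or 16 within replicate numbers), which cannot reach 0.05. These p-values, for 9 genes and 2 comparisons, are not adjusted. Regions named in the text were the promoter and the strongest distal region of each gene, every region past the adjusted p or in all libraries of one kind and none of the other, and up to 2 per gene of those in both libraries of 1 group and neither of the other. Cd44 +49.1 kb and the promoters of Csrnp1, Gorasp1 and Ttc21a were named after their values were seen. Alternatives were lists of equal length, ranking by fold, normal scores, a stricter −log10 q of 5, a 50 kb window, a TSS distance of 1 kb, a peak cover of 50%, no block, and each library left out. Read counts per peak were not analysed here. The gene lists leave out 2 genes that are not reported here.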

Additional observations from a re-analysis of the deposited data

Results flagged for a closer look

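At the intronic Itgam +42.8 kb region the genotypes moved in opposite directions in LSK+ and LSK- cells. Both XistΔ/Δ libraries were above both WT libraries in LSK+ (39.5 and 53.0, no peak in WT), and both were below WT in LSK- (no peak, 15.7 and 31.3 in WT). The genotype effect in LSK- minus that in LSK+ was -69.8 points with absent peaks at 0. The region could not enter the test among regions common to all libraries. In the limma fit of regions with a peak in at least 4 lists, with absent libraries at 0 and percentiles re-ranked, the difference was -50.4 ± 12.8 points (SE, adjusted p = 1.000) and did not pass. In lists of equal length 2 libraries kept a peak, LSK+ XistΔ/Δ replicate 2 at 0.516 and LSK- WT replicate 2 at 13.4. The region lies within Gm49368, a gene that overlaps Itgam. With 2 libraries a group, a library that stands apart from its group cannot be tested for.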

How the results depend on the processing

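The count of 1 member region called for cell type fell to 0 with no replicate block, and 285 of the 21360 regions were then called in place of 4437. It was 11 of 63 when regions with a peak in at least 4 lists were tested, with 10526 of all 60447 such regions called. With a window of 50 kb it was 5 of 30, with 4437 of 21360 regions called. With each library left out in turn, the Cd44 +85.9 kb difference ran from -46.1 to -33.3 points. The counts for genotype and for its difference between cell types stayed at 0 in every alternative run, block or not. Member regions in all LSK- and no LSK+ libraries numbered 3, 5 with the stricter −log10 q and 6 with the 50 kb window, and 3 to 8 with a library left out (8 without LSK- WT replicate 2, 5 without LSK+ XistΔ/Δ replicate 2 or LSK- XistΔ/Δ replicate 2). Over all regions this class held 2611 of the 60447 with peaks in at least 4 libraries, and 2410 regions with the stricter −log10 q. It held 5191 without LSK- WT replicate 2, 3380 without LSK+ XistΔ/Δ replicate 2 and 3125 without LSK- XistΔ/Δ replicate 2. Member regions in all LSK+ and no LSK- libraries numbered 0, 1 with the 50 kb window, and 0 to 2 with a library left out (2 without LSK+ WT replicate 2, the shortest list). Over all regions this class held 722, and 3287 without LSK+ WT replicate 2. The 1 member region in all XistΔ/Δ and no WT libraries was lost (0) in lists of equal length and with a cover of 50%, and the count was 1 to 4 with a library left out (4 without LSK+ XistΔ/Δ replicate 1 or LSK- WT replicate 1). Over all regions this class held 574, with 33 in lists of equal length and 328 with a cover of 50%. It held 1155 without LSK+ XistΔ/Δ replicate 1 and 1818 without LSK- WT replicate 1. The cause of these changes was not tested. How many regions could enter these classes under each alternative is not given, so no rise is read as particular to the members. Promoter differences between genotypes depended most on list length: Cxcr2 turned to -0.566 points, Cxcr4 to -6.40 points, and Ccr1, Ccr2, Itgam and Cd44 fell to 9.47, 8.20, 6.73 and 2.08 points. The Cxcr2 value rested on 1 weak peak, at 2.26 in LSK+ WT replicate 2, with no promoter peak in any other list of equal length. The promoters higher in XistΔ/Δ without overlap numbered 6 in whole lists, 0 in lists of equal length, 3 when ranked by fold and 4 with a TSS distance of 1 kb. At that distance the Cxcr2 difference was 0.421, and the Ccr2 difference was 0 because no library had a peak there. Between cell types, ranking by fold turned Itga4 to -2.07 and Cd44 to -0.174 points. The other 206 single-promoter values moved by less than the spread between replicates. They include the runs with the replicate block, which can change only the p-value. Some changed sign within that spread. By cell type, Cxcr2 went from 7.71 to -2.28 points without LSK- WT replicate 1, and Cx3cr1 from 11.8 to -4.80 without LSK+ WT replicate 2. The compact Cx3cr1 window changed none of these counts; it and the counts of promoters in lists of equal length, by fold and within 1 kb were chosen after seeing the data. A fit that leaves out a library with 1 left in its group assumes that it varies like the others. A peak list says only whether a peak passed a threshold, so a missing peak in a short list does not show closed chromatin.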
